A study of Homo sapiens with 6 samples.

Results

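The genes described here are 10 components of the Notch pathway, chosen by their symbols out of the 35639 genes measured in hFOB 1.19 cells. They comprise 3 receptors (NOTCH1, NOTCH2 and NOTCH3), 3 ligands (JAG1, JAG2 and DLL1) and 4 transcriptional targets (HES1, HEY1, HEY2 and HEYL), and all 10 were present in the table. These are fetal human cells of the osteoblast lineage whose growth depends on a heat-labile viral T antigen, so that they divide at 34 °C and mature when warmed. The cells carried a lentiviral vector with a dTomato reporter that was empty (EV) or held an HA-tagged histone H3.3 from a Drosophila cDNA. That H3.3 was either wild type (H3.3-WT) or had glycine 34 replaced by tryptophan (H3.3-G34W), the substitution of giant cell tumour of bone. All lines were sorted for dTomato and kept at 34 °C, and poly(A) RNA was sequenced 15 days after transduction in 2 libraries per line. The human H3.3 genes do not measure the Drosophila transgene, so they cannot show which transgene a library carried.

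Groups follow the library titles. The genotype field of the labels gives H3.3-WT for the libraries titled G34W, and H3.3-G34W for those titled WT. Under that field every direction given here for mutant against wild type would be reversed. EV replicate 1 was left out because 80.5% of all genes, among them 9 of the 10 Notch genes, were listed at 0 in it, against 40.7% to 46.0% of genes in the other 5 libraries. The comparisons therefore rest on 5 libraries, called G34W-1, G34W-2, WT-1, WT-2 and EV-2 from here on, after their titles and replicate numbers. Values are normalised estimated counts per gene, which summed to between 38821143 and 48024590 in these 5 libraries. The read depth behind them is unknown. Between 29.9% and 66.6% of the low values in a library were whole multiples of its commonest low value, within 0.02, so whole reads could not be recovered.

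Notch receptors are membrane proteins that, on binding a ligand of a neighbouring cell, are cleaved by ADAM10 and then by gamma-secretase. The freed intracellular domain enters the nucleus, where it joins the DNA-binding protein RBPJ and a Mastermind coactivator and switches on genes such as those of the HES and HEY repressors. In the osteoblast lineage, Notch signalling is known for holding progenitors back from terminal differentiation, and NOTCH2 is the receptor altered in Hajdu-Cheney syndrome, a disorder with marked bone loss.

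Before the Notch genes are compared, 1 library must be set apart. G34W-1 held transcripts of pluripotent stem cells at far higher levels than the other libraries. All 12 genes of the pluripotency marker list were more than 2-fold higher there than in each of the other 4 libraries. Their values summed to 66576 in G34W-1, and to 964 in G34W-2, 985 and 1073 in the WT libraries and 1142 in EV-2. POU5F1, the defining gene of the list, was the most abundant over all libraries together. It had 19441 in G34W-1 and between 41.6 and 75.4 elsewhere, where DNMT3B was the most abundant at 395 to 541. Differences between G34W and WT are therefore also given for G34W-2 alone. How far the source of these transcripts contributed to the Notch values of G34W-1 was not tested.

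Osteoblast markers were present in all 5 libraries, although some of them were near 0. The 10 genes of that list summed to between 194017 and 264488, with COL1A2 the most abundant at 90034 to 138799. RUNX2, the lineage-defining transcription factor, ranged from 236 to 573, with its lowest value in G34W-1. SP7, which acts downstream of RUNX2, did not exceed 6.03, and IBSP, a gene of mineralising cells, was listed at 0 in all but EV-2, where it had 2.50. BGLAP, which encodes osteocalcin, had 4.08 and 27.4 in G34W, 44.9 and 39.3 in WT and 5.55 in EV-2. SPP1, which encodes osteopontin, was higher, at 171 to 649, and overlapped between the groups. ALPL, the alkaline phosphatase of bone-forming cells and also of pluripotent stem cells, had 1216 in G34W-1 and between 107 and 428 elsewhere. The 11 neural genes summed to between 10376 and 21235, with NES the most abundant over all libraries together, although TUBB3 (5682) exceeded it in G34W-1. NES, an intermediate filament gene of progenitor cells, had 4005 and 7823 in G34W, 9565 and 13917 in WT and 11862 in EV-2. It was thus lower in both G34W libraries than in the other 3, with a log2 fold change of -1.04 (limma adjusted p = 0.9997), or -0.56 for G34W-2 alone. The defining gene PAX6 was at most 5.96 outside G34W-1, where it had 37.2. SOX3, DCX and STMN2 of that list were likewise highest in G34W-1, with 427, 196 and 23.2 against at most 6.83 elsewhere. Of the 11 genes, 5 were highest in G34W-1 and the others in another library. NEUROG2 went the other way, with 3.07 and 2.27 in G34W against 8.89 and 17.5 in WT, while TUBB3 overlapped between the groups. The 8 endothelial genes summed to between 1822 and 3472. The most abundant over all libraries together was TEK, at 782 to 1958, although TIE1 (916) exceeded it in G34W-2, and the defining gene CDH5 did not exceed 10.9. The 5 myeloid genes summed to between 1034 and 1417, most of it CD68 (850.4 to 1268), and PTPRC did not exceed 25.4. No gene of the 5 lists was listed at 0 in all 5 libraries.

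**Figure D1:**
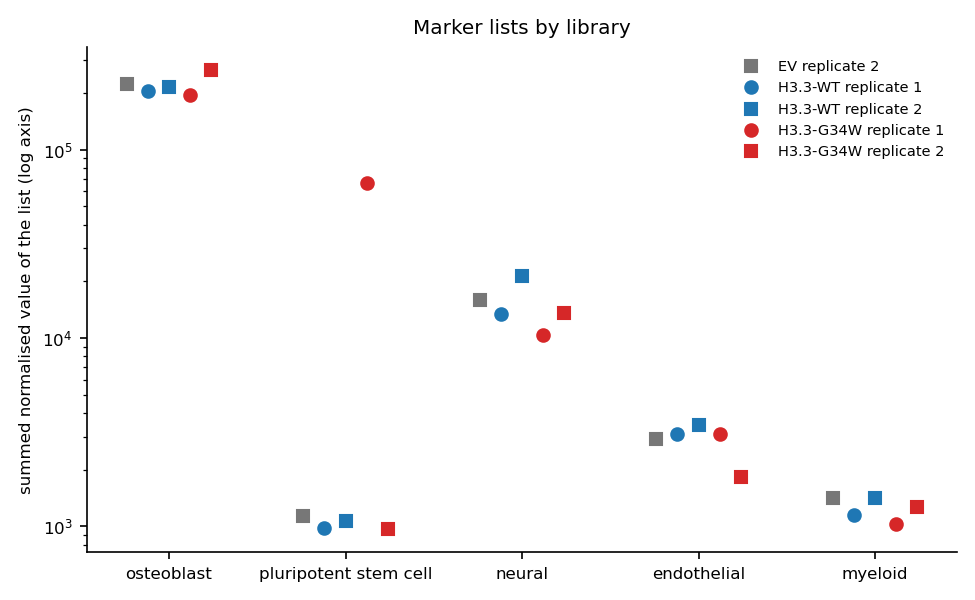
Summed normalised values of 5 marker lists in each library, on a log axis; each point is 1 library. The pluripotency sum of G34W-1 (66576) stands far above those of the other 4 libraries (964 to 1142), while the osteoblast sums lie between 194017 and 264488.

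Levels of different genes can be compared only per length, so each value was divided by the length of the gene's canonical transcript. Per kilobase, NOTCH2 was by far the most abundant of the 10 genes, with a median of 2313 over the 5 libraries. NOTCH1 followed with a median of 338 per kilobase, then HES1 with 140.4, JAG1 with 138, HEY1 with 66.6 and NOTCH3 with 45.5. DLL1 (18.1 per kilobase), JAG2 (17.9), HEYL (11.0) and HEY2 (0.831) were the lowest. The lowest library of NOTCH2 (1500 per kilobase) exceeded the highest of NOTCH1 (437), and the lowest of JAG1 (104) exceeded the highest of HEY1 (77.2). Every other neighbouring pair in this order overlapped in range. HES1 and JAG1 were not separated, since HES1 was the higher of them in 3 of the 5 libraries.

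**Figure D2:**
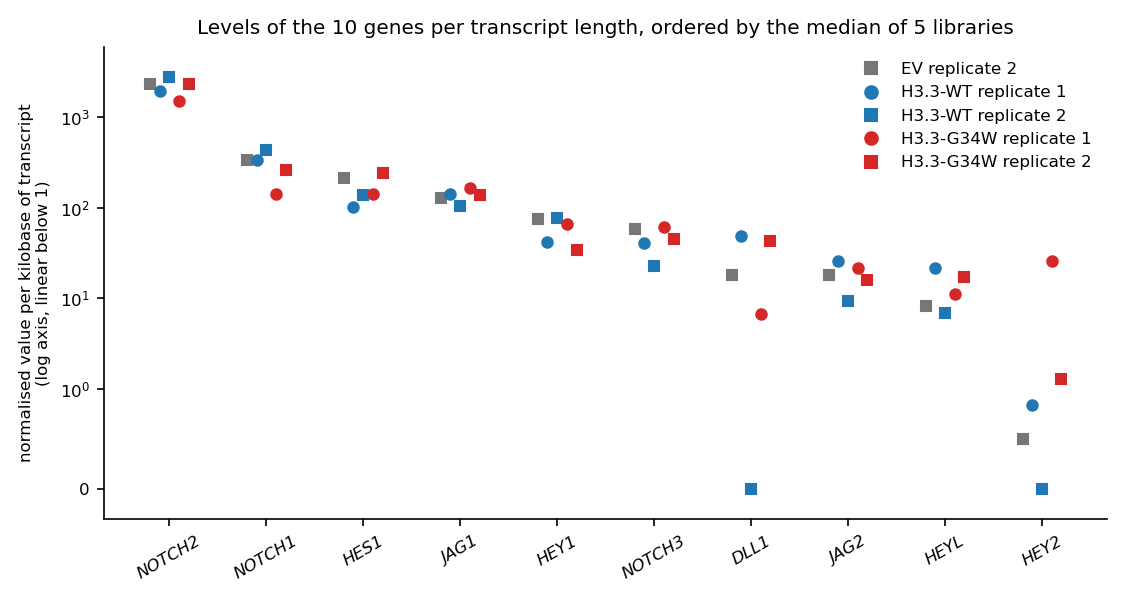
Normalised value per kilobase of transcript for each of the 10 genes in the 5 libraries, on a log axis that is linear below 1; each point is 1 library, and genes are ordered by their median. NOTCH2 lies between 1500 and 2817 per kilobase, above every other gene, and HEY2 exceeds 1.28 only in G34W-1.

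The first question was whether mutant H3.3 changed these genes relative to wild-type H3.3. NOTCH1 was lower in both G34W libraries than in both WT libraries, while NOTCH3 and HES1 were higher, and none of these differences passed a test across the genome. That test, limma on log2(value + 1), took in the 16436 genes that reached 10 in 2 or more libraries. It gave 0 genes (0%) with a Benjamini-Hochberg adjusted p under 0.05 between G34W and WT, while 466 genes had an unadjusted p under 0.05, 280 of them higher and 186 lower. Without G34W-1 the counts were 0 and 243. The adjusted count was 52 without G34W-2, 6 without WT-1 and 1 without WT-2, so it depended on single libraries, but no Notch gene passed in any of these. None of the 9 Notch genes tested passed the adjusted threshold. HEY2 was not tested, because it reached a value of 10 in only 1 library. NOTCH1 alone had an unadjusted p under 0.05, that is 1 of 9 genes, where 2.84% of all genes tested did. Both G34W libraries lay above both WT libraries for NOTCH3 and HES1, 2 of the 9 genes, against 11.5% of all genes tested. They lay below both for NOTCH1, 1 of 9, against 14.9% of all genes tested. For G34W-2 alone, NOTCH3 and HES1 were above both WT libraries and NOTCH1 below, which follows from the groups not overlapping. HEY1 was below both WT libraries in G34W-2 as well. With that single library, 31.8% of all genes tested were above both WT libraries and 23.4% below. The median log2 fold change of the 9 genes was 0.25, with 6 higher and 3 lower, and that of all genes tested was -0.06. For G34W-2 alone these medians were 0.18 and 0.04. With 2 libraries in each group, an exact two-sided permutation test cannot give a p below 0.333. The libraries of a line were duplicates. The paper defines replicates as biological ones within an experiment, such as separate wells. Whether these duplicates came from separate transductions is not stated. The p-values therefore measure only the spread between these libraries, which may be technical.

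**Figure D3:**
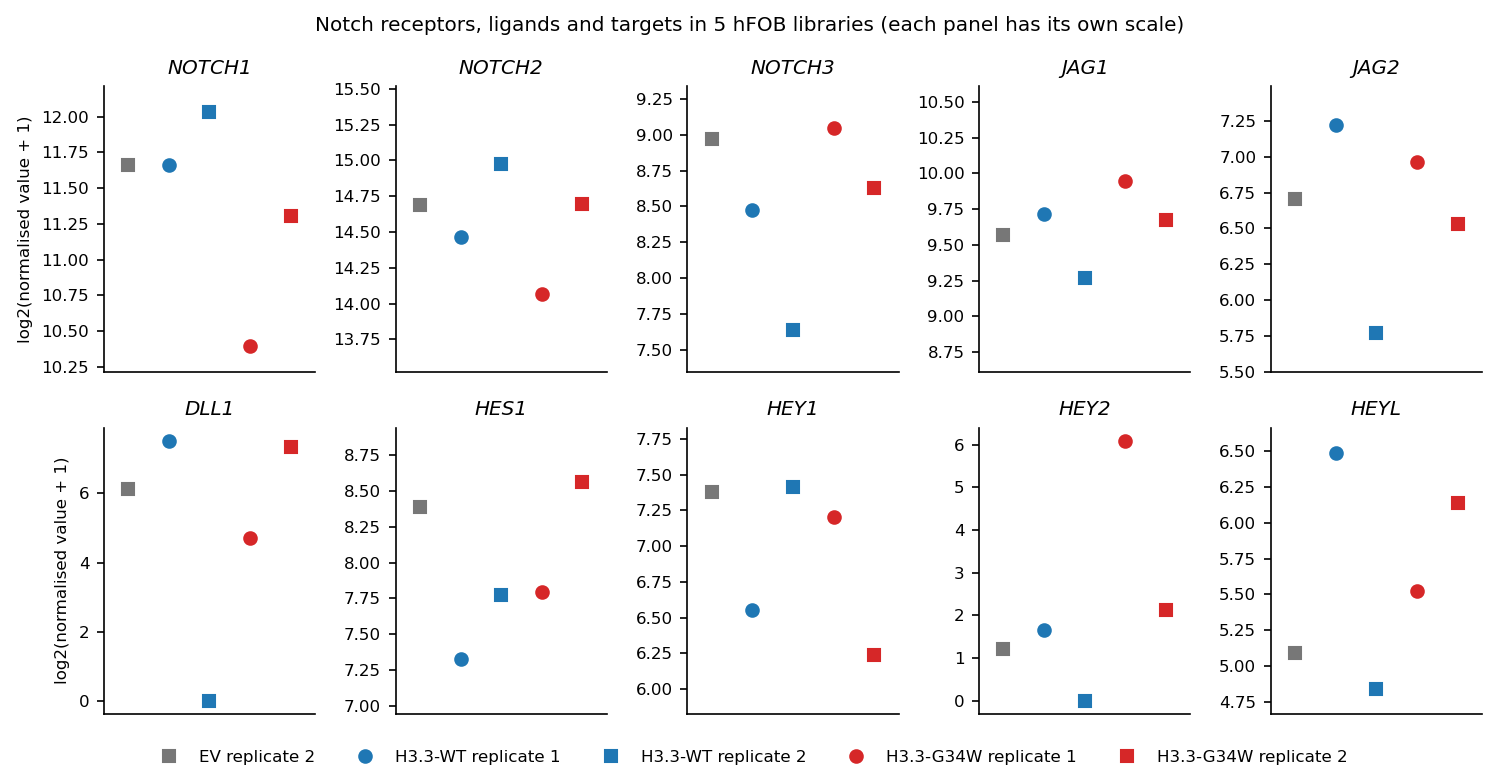
log2(value + 1) of each of the 10 genes in the 5 libraries, 1 panel per gene with its own vertical scale; each point is 1 library. NOTCH1 is lower, and NOTCH3, HES1 and HEY2 are higher, in both G34W libraries than in both WT libraries; the other 6 genes overlap.

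Of the receptors, NOTCH1 differed most clearly between G34W and WT, relative to its spread. NOTCH1 (ENSG00000148400; chromosome 9 of GRCh38.p14, 136494433 to 136546048) had 1348 normalised estimated counts in G34W-1 and 2527 in replicate 2. It had 3246 and 4179 in WT replicates 1 and 2, and 3232 in EV-2. Both G34W libraries were thus below all 3 other libraries, and replicate 1 was the lower. The means were 1937 ± 834 in G34W and 3712 ± 660.0 in WT (SD, n = 2). On the log2(value + 1) scale the fold change was -1.0 (moderated standard error, SE, 0.33, unadjusted p = 0.0141, limma adjusted p = 0.9997). For G34W-2 alone it was -0.54 and for replicate 1 alone -1.45, values of 1 library with no spread of their own. In bulk RNA, fewer cells expressing a gene and less RNA per cell cannot be told apart.

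NOTCH2, the predominant receptor, overlapped between the groups. NOTCH2 (ENSG00000134250; chromosome 1, 119911553 to 120069662) had 17135 and 26509 in the G34W libraries, 22615 and 32189 in the WT libraries and 26425 in EV-2. The log2 fold change of -0.34 (SE 0.32, limma adjusted p = 0.9997) rested on the low value of G34W-1 and the high value of WT-2. It was -0.03 for G34W-2 alone and -0.09 without WT-2. G34W-1 was the lowest library for NOTCH1 and NOTCH2, 2 of the 9 Notch genes tested, as it was for 40.2% of all genes tested. Estimated counts may be split between NOTCH2 and its near-identical copies, so these values are uncertain. NOTCH2NLA had 934 and 1414 in G34W against 1436 and 1439.8 in WT, and NOTCH2NLC had 859 and 1317 against 1268 and 1270.5. NOTCH2NLB had 369.6 and 536 in G34W against 385 and 530.5 in WT. All 3 copies were lowest in G34W-1, as NOTCH2 was, and NOTCH2NLR was not matched by name.

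NOTCH3, a receptor best known from vascular smooth muscle and pericytes, went the other way. NOTCH3 (ENSG00000074181; chromosome 19, 15159038 to 15200995) had 528 and 395 in the G34W libraries and 355 and 198 in the WT libraries. EV-2, with 500.4, lay among the G34W libraries and above both WT libraries. The means were 462 ± 94.4 in G34W and 276 ± 111 in WT (SD, n = 2), a log2 fold change of 0.78 (SE 0.41, limma adjusted p = 0.9997). For G34W-2 alone it was 0.57, and without WT-2, the lowest library, it was 0.36. The remaining WT-1 and G34W-2 differed by only 355 against 395.

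The balance of the receptors followed from these values. Of the summed NOTCH1, NOTCH2 and NOTCH3 values per kilobase, NOTCH2 made up between 83.9% and 88.2% in each of the 5 libraries. NOTCH1 made up 8.28% and 10.04% in the G34W libraries, 14.4% and 13.3% in the WT libraries and 12.5% in EV-2. NOTCH3 made up 3.58% and 1.73% in G34W, 1.73% and 0.695% in WT and 2.13% in EV-2. The NOTCH1 share of both G34W libraries was below that of the other 3, a description of the same values and not a further test.

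**Figure D4:**
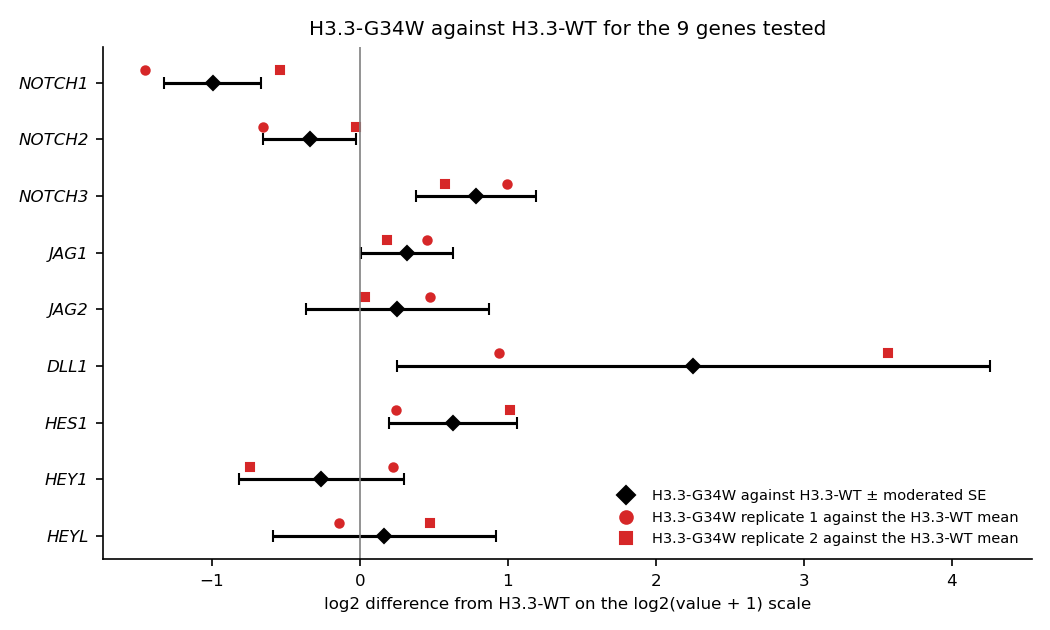
Log2 fold change of G34W against WT with its moderated standard error for the 9 genes tested (diamonds), and the log2 difference of each G34W library from the WT mean (circles, replicate 1; squares, replicate 2). NOTCH1 lies at -1.45 and -0.54 in the single libraries and NOTCH3 at 0.99 and 0.57, while HEY1 and HEYL lie on opposite sides of 0.

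Among the ligands, JAG1 was the most abundant and the steadiest. JAG1 (ENSG00000101384; chromosome 20, 10637684 to 10673999), the main Notch ligand of the osteoblast lineage, had 987 and 818 in G34W, 840.3 and 617 in WT and 760.1 in EV-2. The groups overlapped, and the log2 fold change was 0.32 (SE 0.31, limma adjusted p = 0.9997), or 0.18 for G34W-2 alone and 0.10 without WT-2. JAG2 (ENSG00000184916; chromosome 14, 105140995 to 105168776), the other ligand of the Jagged type, was far lower per length. It had 124 and 91.2 in G34W, 148 and 53.4 in WT and 104 in EV-2. The WT libraries enclosed all the others, so the fold change of 0.25 (SE 0.62), or 0.03 for G34W-2 alone and -0.48 without WT-2, was smaller than the spread within WT. Per kilobase, JAG1 was between 5.50 and 11.2 times JAG2 in each library.

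DLL1 (ENSG00000198719; chromosome 6, 170282206 to 170291078), a ligand of the Delta type, varied more between replicates than between groups. It had 25.1 and 160.0 in G34W, 184 in WT-1 and 68.3 in EV-2, and was listed at 0 in WT-2. The highest and the lowest value thus came from the same group. Of all genes tested, 10 (0.0608%) were listed at 0 in 1 WT library with at least 100 in the other, DLL1 among them; this pattern was counted after the values were seen. The log2 fold change of 2.25 (SE 2.0, limma adjusted p = 0.9997) rested on that 0. It was 3.57 for G34W-2 alone and -1.51 without WT-2. With a pseudocount of 0.1 or 10 in place of 1 it was 3.89 or 0.81. The span of DLL1 overlaps that of FAM120B, which had between 366 and 514 in the 5 libraries, and how the estimated counts treat shared bases is unknown.

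The targets encode basic helix-loop-helix repressors and serve as a readout of Notch activity, though other pathways act on them too. HES1 (ENSG00000114315; chromosome 3, 194136148 to 194138732), the classical direct target, was the most abundant of them per length. It had 221 and 377 in G34W, 159 and 218 in WT and 334 in EV-2. Both G34W libraries were above both WT libraries, but G34W-1 exceeded WT-2 by only 221 against 218. The means were 299 ± 110.1 and 189 ± 41.2 (SD, n = 2), with a log2 fold change of 0.63 (SE 0.43, limma adjusted p = 0.9997). For G34W-2 alone it was 1.01 and for replicate 1 alone 0.25. Unlike for NOTCH1, the larger difference was therefore in the library without high levels of the pluripotency transcripts.

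HEY1 (ENSG00000164683), another target, had 146 and 74.7 in G34W, 92.8 and 169.6 in WT and 165 in EV-2. The groups overlapped, and the fold change of -0.26 (SE 0.56) was 0.22 for G34W-1 alone and -0.74 for replicate 2 alone, and 0.17 without WT-2. HEYL (ENSG00000163909; chromosome 1, 39623435 to 39639643) had 45.0 and 69.4 in G34W, 88.9 and 27.7 in WT and 33.1 in EV-2, a fold change of 0.16 (SE 0.76), or 0.47 for G34W-2 alone and -0.14 for G34W-1 alone. Without WT-2 it was -0.66. Its WT libraries enclosed all the others. The targets did not move together between the libraries: HES1 was highest in G34W-2, where HEY1 was lowest.

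HEY2 (ENSG00000135547; chromosome 6, 125749632 to 125761269), a target known from heart and vessels, was near 0 except in G34W-1. It had 67.4 there and 3.35 in G34W-2, 2.18 and 0 in the WT libraries and 1.32 in EV-2. It was thus 20.1 times the next library in the same library as the pluripotency transcripts, and whether these were its source was not tested. Against the WT mean, on the log2(value + 1) scale, HEY2 was 5.26 higher in G34W-1 and 1.29 higher in G34W-2. None of the 9 Notch genes tested was more than 2-fold higher in G34W-1 than in each of the other 4 libraries, as 4.68% of all genes tested were.

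Promoters of HES1, HEYL and HEY2 are shown because they hold the letters that RBPJ is known to bind. Those of NOTCH1 and NOTCH3, the receptors whose groups did not overlap, are printed beside them. RefSeq promoters on GRCh38.p14 were matched for 8 of the 10 genes. None was matched for DLL1. Notch genes on the chromosome of HEY1 were left out of the search, a filter not applied to the promoters used for comparison. Whether the HEY1 promoter holds these letters was therefore not examined. The 250 bases before the start site were searched for TGGGAA on both strands (TTCCCA on the strand printed). It was present in HES1, HEY2 and HEYL and in none of the other 5 matched promoters, where 20.8% of 35116 promoters of the same length held it. HES1 and HEYL each held it 2 times, as 2.90% of all promoters held it at least 2 times. In HES1 the matches began 84 and 70 bases before the start site, in the same orientation, and in HEYL 178 and 99 bases before it, in opposite orientations. The sequences follow on the strand of the gene, with matches in capitals. HES1 lies at chr3:194135898-194136147 (plus strand), HEYL at chr1:39639644-39639893 (minus strand), HEY2 at chr6:125749382-125749631 (plus strand), NOTCH1 at chr9:136546049-136546298 (minus strand) and NOTCH3 at chr19:15200996-15201245 (minus strand).
HES1: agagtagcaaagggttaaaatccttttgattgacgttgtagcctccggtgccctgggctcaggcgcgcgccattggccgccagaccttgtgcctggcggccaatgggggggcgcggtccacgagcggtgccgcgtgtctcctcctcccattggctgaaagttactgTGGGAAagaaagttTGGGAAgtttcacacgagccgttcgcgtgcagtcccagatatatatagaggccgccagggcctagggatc
HEYL: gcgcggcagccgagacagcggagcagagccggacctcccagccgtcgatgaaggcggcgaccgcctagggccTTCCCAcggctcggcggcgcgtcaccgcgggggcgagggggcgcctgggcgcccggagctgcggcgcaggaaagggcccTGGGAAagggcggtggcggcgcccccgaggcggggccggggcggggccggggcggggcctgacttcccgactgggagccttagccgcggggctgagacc
HEY2: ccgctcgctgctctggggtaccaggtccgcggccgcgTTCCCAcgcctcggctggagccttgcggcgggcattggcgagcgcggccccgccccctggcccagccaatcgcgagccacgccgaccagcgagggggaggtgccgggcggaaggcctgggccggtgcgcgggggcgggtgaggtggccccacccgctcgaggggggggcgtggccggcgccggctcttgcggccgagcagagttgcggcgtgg
NOTCH1: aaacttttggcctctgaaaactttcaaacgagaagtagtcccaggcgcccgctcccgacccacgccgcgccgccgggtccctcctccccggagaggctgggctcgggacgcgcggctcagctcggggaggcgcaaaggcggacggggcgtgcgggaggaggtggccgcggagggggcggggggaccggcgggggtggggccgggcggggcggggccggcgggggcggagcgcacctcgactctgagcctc
NOTCH3: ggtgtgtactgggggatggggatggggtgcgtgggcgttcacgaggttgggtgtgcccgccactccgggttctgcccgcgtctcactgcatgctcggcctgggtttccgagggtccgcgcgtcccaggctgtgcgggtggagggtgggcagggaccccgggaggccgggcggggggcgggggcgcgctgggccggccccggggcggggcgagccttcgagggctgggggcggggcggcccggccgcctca

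A match is a description of the sequence, and no binding was measured here. The targets that share these letters did not share a pattern of values: HES1 was higher in both G34W libraries, HEYL overlapped between the groups, and HEY2 was near 0 outside 1 library.

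The second question was how each H3.3 line compared with empty vector. EV has 1 library and was assumed to vary like the other groups, and both comparisons share it. For WT against EV-2, limma gave 0 of 16436 genes (0%) with an adjusted p under 0.05, and 175 had an unadjusted p under 0.05 (111 higher, 64 lower). For G34W against EV-2, limma gave 0 such genes (0%), and 324 had an unadjusted p under 0.05 (193 higher, 131 lower). Without WT-1, WT-2 or G34W-1, 3, 2 and 1 genes passed for WT, and without G34W-2, 28 genes passed for G34W, where omitting G34W-1, WT-1 or WT-2 gave 1 each. None of the 9 Notch genes passed in either comparison, and 0 of them had an unadjusted p under 0.05. NOTCH1 had a log2 fold change of 0.19 in WT and -0.81 in G34W (SE 0.40 in each), so WT lay nearer to EV-2 than G34W did. NOTCH3 had -0.91 in WT and -0.13 in G34W (SE 0.50 in each), and HES1 had -0.84 and -0.21 (SE 0.53 in each). For these genes it was WT that lay farther from EV-2. Whether the lines differed in this respect was tested only by the comparison of G34W with WT. For G34W-2 alone, the differences from EV-2 were -0.36 for NOTCH1, -0.34 for NOTCH3 and 0.17 for HES1, so HES1 was then slightly above EV-2. JAG1 had -0.08 and 0.24, and NOTCH2 0.03 and -0.31, all smaller than their standard errors of 0.38 and 0.39. JAG2 had -0.21 and 0.04 (SE 0.76), DLL1 -2.35 and -0.09 (SE 2.45), HEY1 -0.39 and -0.65 (SE 0.69) and HEYL 0.57 and 0.74 (SE 0.92), again within their standard errors. For G34W-2 alone, the differences from EV-2 of these remaining genes were 0.11 for JAG1, 0.0046 for NOTCH2 and -0.18 for JAG2. They were 1.22 for DLL1, -1.13 for HEY1 and 1.04 for HEYL. The median over the 9 genes was -0.21 for WT and -0.13 for G34W, beside 0.02 and -0.04 over all genes tested.

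A list of 67 other Notch pathway genes gave the setting of these values. Of these, 63 were tested, and limma gave 0 with an adjusted p under 0.05 in any of the 3 comparisons. Between G34W and WT, 1 of them, MAML1, had an unadjusted p under 0.05. MAML1 reached 10 only in the G34W libraries and was listed at 0 in EV-2 and both WT libraries. Its p is against a group at 0 without spread, so it cannot decide whether the groups differed. No other gene of the 63 had an unadjusted p under 0.05 in that comparison. Between G34W and WT their median log2 fold change was -0.01, with 30 higher and 33 lower. Its direction depended on the library, at -0.20 for G34W-1 alone and 0.11 for G34W-2 alone, where the medians of all genes tested were -0.17 and 0.04. Both G34W libraries were above both WT libraries for 8 of the 63 (12.7%) and below both for 6 (9.52%), near or under the shares of all genes tested. Without regard to group, 33 of the 63 had their lowest value in G34W-1, against 40.2% of all genes tested. The machinery for receiving a signal was present: RBPJ had between 2121 and 3155, ADAM10 between 3285 and 4193, and the gamma-secretase subunits NCSTN, APH1A and PSENEN at least 1563 in each library. None of the 9 receptor cleavage genes separated the groups, and their median log2 fold change was 0.13, or 0.17 for G34W-2 alone.

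Of DLL3, DLL4 and NOTCH4, the Delta ligands and the receptor not yet described, 2 were lower and 1 was higher in both G34W libraries than in both WT libraries, as 14.9% and 11.5% of all genes tested were. DLL4, a Delta ligand of endothelium, had 3.80 and 7.92 in G34W, 28.9 and 17.6 in WT and 15.1 in EV-2. Its log2 fold change was -1.85 (SE 1.02, limma adjusted p = 0.9997), and it was -1.40 for G34W-2 alone. NOTCH4, an endothelial receptor, had 9.97 and 13.5 in G34W, 23.6 and 24.1 in WT and 21.3 in EV-2, a log2 fold change of -0.98 (SE 0.88), or -0.78 for G34W-2 alone. Both were lower in each G34W library than in the other 3 libraries, at values where the log2(value + 1) scale understates a difference. Of the 7 endothelial markers tested, TEK and TIE1 were also lower in both G34W libraries than in both WT libraries, TEK with 1548 and 782 against 1829 and 1958, and TIE1 with 716 and 916 against 964 and 1301. Of all genes tested, 14.9% were likewise lower. The other 5 markers overlapped between the groups, among them KDR, which had 656 in G34W-1 against at most 78.3 elsewhere. Their part in the DLL4 and NOTCH4 values was not tested. DLL3, a Delta ligand that acts as an inhibitor within the cell, had 185 and 83.1 in G34W, 65.1 and 58.1 in WT and 44.9 in EV-2. Its fold change of 1.0 (SE 0.61) was 0.43 for G34W-2 alone.

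**Figure D5:**
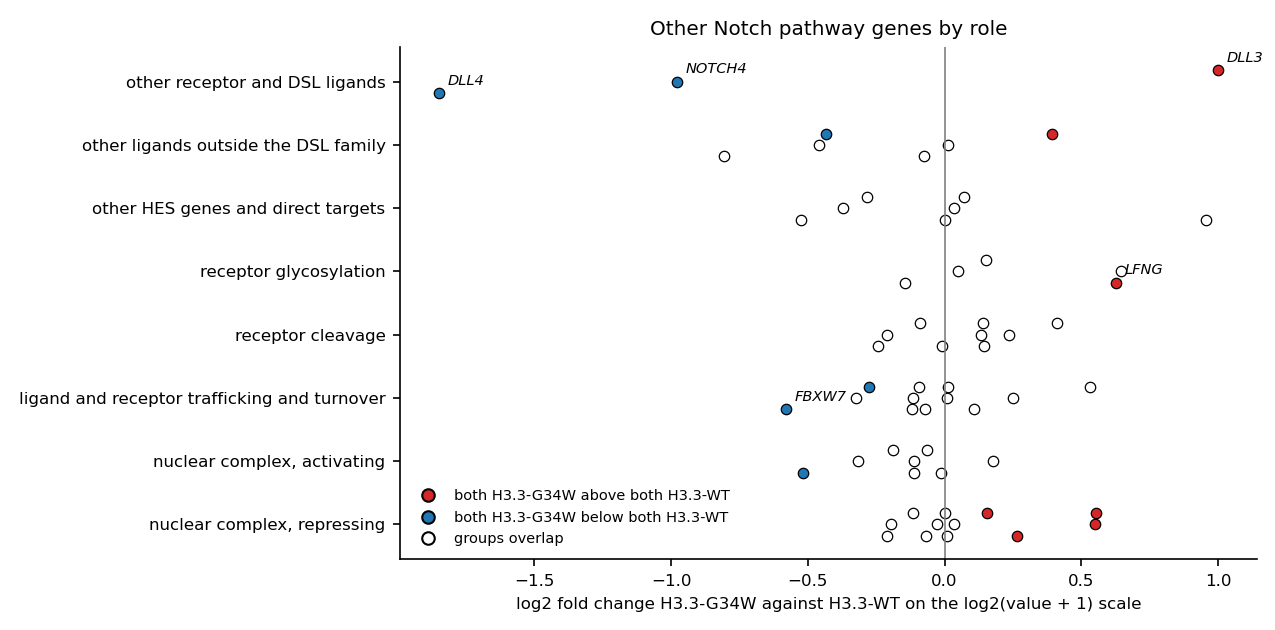
Log2 fold change of G34W against WT for the other Notch pathway genes tested, by role; each point is 1 gene, filled red or blue where both G34W libraries lie above or below both WT libraries. Most genes lie within 1 of 0; DLL4 (-1.85) and NOTCH4 (-0.98) lie at the low end and DLL3 (1.0) at the high end. MAML1, listed at 0 in both WT libraries, is not drawn.

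MAML1, a Mastermind coactivator of the nuclear complex, was listed at 0 in EV-2 and in both WT libraries, and had 310.3 in G34W-1 and 12.0 in replicate 2. MAML1 is known to be broadly expressed. What lies behind the values at 0 was not tested, and no fold is given against a group at 0. Its relatives MAML2 and MAML3 had between 423 and 649.6 and between 209 and 392 in the 5 libraries, and overlapped between the groups. LFNG, which adds sugars to Notch and changes its choice of ligand, had 426 and 342 in G34W, 185 and 329 in WT and 302 in EV-2 (log2 fold change 0.63, SE 0.42). FBXW7, which marks the intracellular domain for degradation, had 669 and 1038 in G34W, 1303 and 1191 in WT and 1191 in EV-2 (log2 fold change -0.58, SE 0.31). TLE2, a corepressor partner of HES proteins, had 130.4 and 96.8 in G34W, 83.5 and 69.5 in WT and 55.5 in EV-2 (log2 fold change 0.55, SE 0.54). HDAC2, a histone deacetylase of repressor complexes, had 10178 and 5745 in G34W, 5225 and 5219 in WT and 4689 in EV-2 (log2 fold change 0.55, SE 0.30). For G34W-2 alone, the differences were 0.47 for LFNG, -0.26 for FBXW7, 0.34 for TLE2 and 0.14 for HDAC2. These genes were named because their groups did not overlap, so their direction in that library was fixed by that choice. None passed the adjusted threshold.

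A few pathway genes had their highest value in G34W-1 by a wide margin; they were picked out after their values were seen. Of the 63 pathway genes tested, 4 were more than 2-fold higher there than in each of the other 4 libraries (MAML1, DLL3, NRARP and DTX4), as were 4.68% of all genes tested. NRARP, a feedback inhibitor induced by Notch, had 299 there and between 23.9 and 43.7 elsewhere. DTX4, a Deltex ubiquitin ligase, had 352 there and between 60.6 and 160.1 elsewhere. DTX1, a target of Notch that was not tested because only 1 library reached a value of 10, had 99.4 there and at most 4.55 elsewhere. These genes and HEY2 were high in the library that also held the pluripotency transcripts, and in G34W-2 NRARP (23.9), DTX4 (60.6), DTX1 (2.07) and HEY2 (3.35) showed no such level. In G34W-2, MAML1 (12.0) and DLL3 (83.1) were above EV-2. They were also above both WT libraries there, which follows from their groups not overlapping.

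Of the 10 Notch genes, DLL1 had the widest range, over the 5 libraries (7.53 on the log2 scale) and over the 4 without G34W-1 (also 7.53). The 3 genes most like it over 5 libraries, by the largest absolute difference of centred log2(value + 1), were AC105052.1 (1.19), AC008397.2 (1.19) and AC073610.2 (1.25). Over the 4 libraries they were AC008397.2 (0.88), AC105052.1 (1.04) and OPRL1 (1.07). All of these genes, like DLL1, were listed at 0 in WT-2.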

How the data were processed

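RNA-seq of hFOB 1.19 lines was deposited as 1 table of signal values: the authors estimated counts with kallisto on Ensembl GRCh38 models (release 99), imported them per gene and normalised them with DESeq2 (versions not given in the sources used here). Columns were matched to libraries by title, and EV replicate 1 was left out because most of its genes were listed at 0. The 3 groups were compared in pairs. Depth is unknown, so precision rests on the spread between libraries. From these values, log2(value + 1) of 5 libraries was fitted with limma 3.58.1 (R 4.3.3) without covariates, with a variance trend, for the 16436 genes that reached 10 in 2 or more libraries, and adjusted by Benjamini-Hochberg over these genes (threshold 0.05). Such fold changes understate those of low genes. Members and lists were chosen with earlier results of these data known. Named genes were the 10 members, NOTCH2 copies, the defining and most abundant gene of each marker list, and the 8 pathway genes with the largest fold change among those tested whose groups did not overlap; any other gene named was picked out after its values were seen. Transcript lengths are exon sums of canonical transcripts in Gencode 44 (lifted to GRCh37), and coordinates and promoters are from RefSeq on GRCh38.p14. Alternatives were other pseudocounts, no filter, no trend, rescaling, a replicate block, EV replicate 1 kept, and each library left out; a late addition, made once results were known, recounted the genes whose groups did not overlap with 1 library omitted. Plots used matplotlib 3.10.9. Other experiments of the study were not analysed here.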

Additional observations from a re-analysis of the deposited data

How the results depend on the processing

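Between G34W and WT the count of genes with an adjusted p under 0.05 from limma was 0 under every pseudocount, filter, trend, rescaling and EV setting, and ran from 0 to 52 when 1 library was omitted. It was 52 without G34W replicate 2, 6 without WT replicate 1, 1 without WT replicate 2 and 0 without G34W replicate 1 or EV replicate 2; none was a Notch gene described here. Against EV replicate 2 the counts ranged from 0 to 3 for WT and from 1 to 28 for G34W, the 28 again without G34W replicate 2, and a pseudocount of 0.1 gave 1 in each. The cause was not tested. Of 108 alternative fold changes of the 9 genes tested, 102 kept their direction, and the lowest adjusted p from limma was 0.179 (NOTCH1 without G34W replicate 2). NOTCH1, NOTCH2, NOTCH3, JAG1 and HES1 kept their direction in all 12. With each library left out, the fold change ranged from -1.45 to -0.54 for NOTCH1, -0.65 to -0.03 for NOTCH2, 0.36 to 1.20 for NOTCH3, 0.10 to 0.54 for JAG1, 0.25 to 1.01 for HES1, -0.48 to 0.98 for JAG2, -1.51 to 6.02 for DLL1, -0.74 to 0.22 for HEY1 and -0.66 to 0.99 for HEYL. Of these 9, the genes whose G34W libraries all lay above the WT libraries kept then numbered 2 to 6, and those below 2 to 4, where between 25.0% and 31.8% of all genes tested lay above and between 23.4% and 47.9% below. HEY2, tested only without the filter, had a fold change of 3.27; the log2 difference was 1.29 without G34W replicate 1 and 5.26 without G34W replicate 2, and 4.998 or 1.54 with a pseudocount of 0.1 or 10.

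A block for the replicate number left all 3 counts at 0 (740, 422 and 321 genes had an unadjusted p under 0.05). Deviations of same-numbered libraries correlated at 0.067 across 16436 genes; the labels do not say that a number marks a shared batch, so they share only a number. Depth is unknown, so precision was judged only from the spread between libraries.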

Other observations

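EV replicate 1, which enters no comparison, was listed at 0 for 9 of the 10 Notch genes. The exception was NOTCH3, with 326 there against 500.4 in EV replicate 2.

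HES5, a direct Notch target of neural progenitors, was listed at 0 in all 5 libraries compared. CCND1, a cell cycle gene that Notch can induce, was highest in WT replicate 2, with 42315 against 19048 to 26524 in the other 4 libraries. CCN3, a matricellular protein reported to bind Notch, was also highest there, with 546 against 143 to 212.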
